A study of Rattus norvegicus with 12 samples.

Results

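The neurotrophins Bdnf and Ntf3 and the receptors Ntrk2, Ntrk3, Ngfr, Sort1 and Sorcs2 were followed in RNA of blast-exposed rats that did or did not receive boldine. The genes were taken by symbol from the count table, which lists 17494 genes, and all 7 were present and passed the filter on low counts that left 12325 genes for testing. Male wild-type Long Evans rats were exposed at 10 weeks of age to 3 blasts, 1 per day, and sacrificed 29 weeks later. Both groups were therefore blast-exposed and differed in diet. The 6 blast-boldine rats ate chow with boldine, an alkaloid of the boldo tree that blocks connexin hemichannels, at 500 mg/kg from week 2 after blast, and the 6 blast-control rats ate the same chow without it. The study's methods also name the boldine diet for the habituation of the animals before the experiments. Before sacrifice, rats of the study were tested for object recognition and for cued fear learning with footshock. The tissue is brain by its labels and hippocampus by the study's methods, and 1 library of total RNA, depleted of ribosomal RNA, was made per rat. Rats without blast exposure were not analysed here, so that a difference between the groups says nothing of the effect of blast.

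Neurotrophins are secreted growth factors that support neuronal survival and synaptic plasticity. They are made as proneurotrophins and cleaved to the mature form. Mature BDNF signals through TrkB, the tyrosine kinase encoded by Ntrk2, and mature neurotrophin-3 signals mainly through TrkC, encoded by Ntrk3. The receptor p75, encoded by Ngfr, binds all mature neurotrophins, and together with a member of the sortilin family, such as sortilin (Sort1) or SorCS2 (Sorcs2), it binds the proforms. Sortilin also sorts BDNF into the regulated secretory pathway. In hippocampus, transcription of Bdnf rises with neuronal activity, Ntf3 is known from granule neurons of the dentate gyrus, and truncated forms of TrkB without the kinase are abundant in astrocytes. Counts by gene do not separate these forms.

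The libraries differed in depth. Counts on genes summed to between 10148474 and 40850106 in 11 libraries and to 74008 in that of blast-control rat 6, in which 1 count was worth 15.8 CPM (the count scaled to a common library total after TMM normalization) against at most 0.102 CPM in the others. In rat 6, 3 counts, taken here as the smallest detected value, came to 47.5 CPM. The main values of each gene are therefore given with and without rat 6. The library names carry suffixes from 1 to 6, each used on a pair of libraries. Of the 4 divisions into 2 sets in which each set holds every suffix and the suffix rises with the rat number, the one with rats 1, 7, 9, 20, 32 and 35 in a first set (set A) and rats 4, 5, 6, 12, 17 and 19 in a second (set B) accounted for 94.8% of the first principal component of the 11 deep libraries, and treatment accounted for 1.59%. Each set holds 3 rats of each group, and the labels do not say what the sets are. Markers of hippocampal neurons were present in all 11 deep libraries, with summed levels of 595 to 1064 CPM for 4 CA1 genes and 262 to 367 CPM for the 3 dentate genes measured. Markers of cortical neurons were also present, at 159 to 253 CPM for 5 genes. The markers of choroid plexus ranged from 7.31 to 1107 CPM over 4 genes.

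No difference between blast-boldine and blast-control rats was detected for any of these genes. With edgeR's quasi-likelihood test, none of the 7 had an adjusted p under 0.05 (two-sided, Benjamini-Hochberg adjustment over 12325 genes), where the share of all genes tested was 0.0%, and each adjusted p rounded to 1.0. None had an unadjusted p under 0.05 either, against 1.07% of all genes tested. The same held without rat 6 (0 of 7, against 1.4% of all genes), with the set of libraries as a covariate (0 of 7, against 3.85%) and with both (0 of 7, against 5.35%). Over the 12 libraries the median log2 fold change of the 7 genes was 0.0092, beside 0.0046 over all genes tested. Without rat 6 the median was that of Ntrk2, -0.039, beside -0.00097 over all genes tested, so that its sign changed with rat 6. Group means are given ± SD over 6 blast-boldine rats and, unless 12 libraries are named, over the 5 blast-controls other than rat 6. The intervals below give the sizes of change that the libraries leave possible, since a p above the threshold does not show that the groups were alike.

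**Figure D1:**
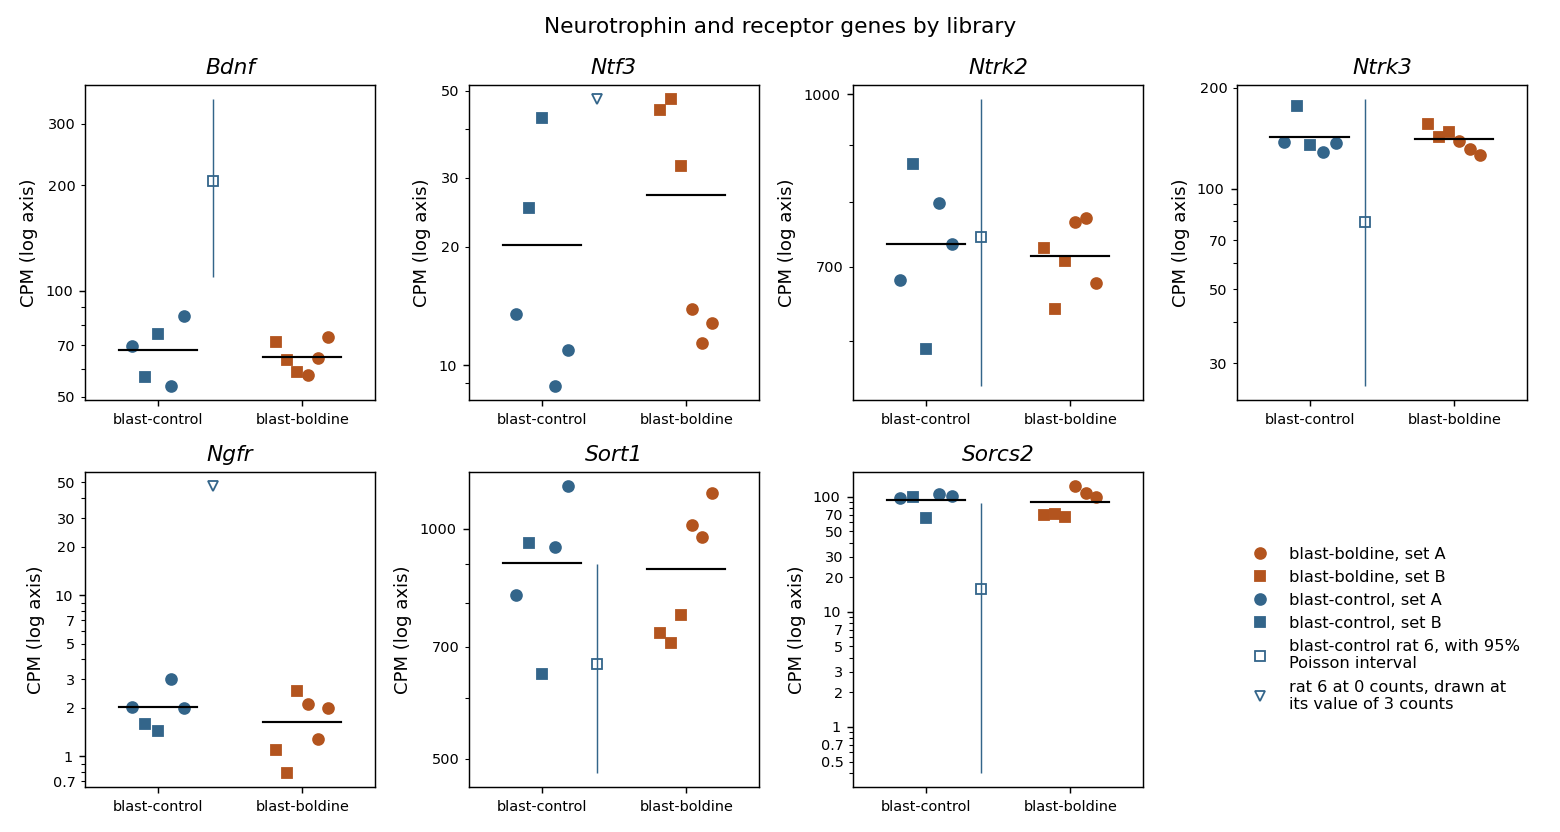
CPM (log axis) of each gene in the 12 libraries by group, with circles for set A, squares for set B and black lines for group means without rat 6. The groups overlapped for all 7 genes, and rat 6 (open symbols, with 95% Poisson intervals of its counts) stood apart for Bdnf at 206 CPM.

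Bdnf encodes brain-derived neurotrophic factor and is found on the plus strand of chromosome 3 (96165042 to 96215619, mRatBN7.2). In blast-boldine rats 12, 17, 19, 20, 32 and 35 it measured 71.5, 63.5, 58.7, 57.6, 64.6 and 74.1 CPM. In blast-control rats 1, 4, 5, 7 and 9 it measured 69.4, 56.8, 75.6, 53.6 and 84.7 CPM, and in rat 6 it measured 206 CPM. All 6 blast-boldine rats lay within the range of the 5 deeply sequenced blast-controls, which held both the lowest and the highest of the 11 values. The value of rat 6 rests on 13 counts, with a 95% Poisson interval of 110 to 352 CPM that covers counting error only and does not reach the other libraries.

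The mean of Bdnf was 65.0 ± 6.68 CPM in blast-boldine rats, 91.0 ± 57.5 CPM in all 6 blast-controls and 68.0 ± 12.9 CPM in blast-controls without rat 6. Its log2 fold change was -0.23 (95% interval -0.73 to 0.28), and -0.068 (-0.36 to 0.22) without rat 6. In linear terms the interval without rat 6 ran from 0.779-fold to 1.17-fold. The difference in mean log2 CPM had a two-sided p of 0.348 by exact permutation over all assignments of the 12 libraries, and of 0.69 over the 462 assignments without rat 6. Bdnf, an activity-induced gene, thus differed between treatments by less than the spread between rats.

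Ntf3, which encodes neurotrophin-3, lies on chromosome 4 from 158914984 to 158984453 on the minus strand. In blast-boldine rats 12, 17, 19, 20, 32 and 35 it measured 44.7, 47.5, 32.2, 13.9, 11.4 and 12.8 CPM. In blast-control rats 1, 4, 5, 7 and 9 it measured 13.5, 25.2, 42.5, 8.85 and 10.9 CPM. The 6 libraries of set A lay between 8.85 and 13.9 CPM and the 5 deep libraries of set B between 25.2 and 47.5 CPM, without overlap and in both treatments. Rat 6 had 0 counts, with an upper 95% Poisson bound of 58.4 CPM at its depth, and a lower level than in the rest of set B was not detectable.

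The means of Ntf3 were 27.1 ± 16.6 CPM in blast-boldine rats and 20.2 ± 14.0 CPM in blast-controls without rat 6. The log2 fold change was 0.46 (95% interval -0.60 to 1.52) over the 12 libraries, which leaves a change of up to 2.86-fold possible, and 0.43 (-0.71 to 1.56) without rat 6, up to 2.95-fold. The difference in mean log2 CPM was 1.61 over the 12 libraries and 0.42 without rat 6, the former resting on the 0 counts of that library and the prior count added to them, and likewise 3.02 within set B with rat 6. With the set as a covariate the log2 fold change was 0.25 (-0.11 to 0.62), and without rat 6 as well it was 0.23 (-0.11 to 0.57), up to 1.48-fold. Intervals with the set as a covariate, here and below, do not take into account that the sets were chosen on these libraries. The mean log2 CPM exceeded that of blast-controls by 0.21 within set A (3 blast-boldine rats against 3) and by 0.32 within set B without rat 6 (3 against 2). The exact permutation p was 0.219 over the 12 libraries and 0.459 without rat 6. It was 0.1 when rats were reassigned within sets, both with rat 6 (400 assignments) and without it (200 assignments). Of all members and alternatives tried, the smallest unadjusted p was that of Ntf3 without blast-control rat 5, the blast-control with the most Ntf3, where the log2 fold change was 0.92 (unadjusted p = 0.0717 and adjusted p = 1.0 from edgeR).

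**Figure D2:**
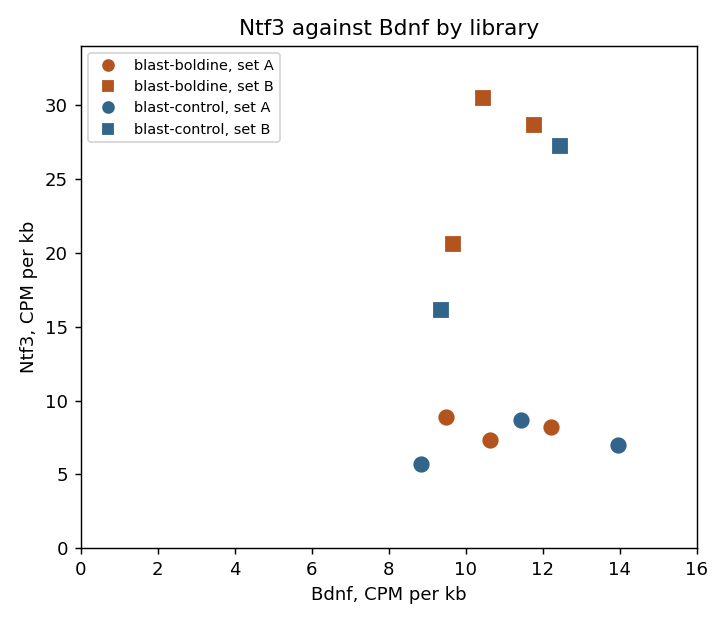
Ntf3 against Bdnf in CPM per kilobase of exon, 1 point per library other than rat 6, coloured by treatment and shaped by set. The libraries separate into their sets along the Ntf3 axis and not along the Bdnf axis.

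Without rat 6, the difference of Ntf3 between the sets was larger than that between treatments, pooled or within either set. Mean log2 CPM was lower by 1.66 in set A, a size above that of 97.1% of the 12325 genes tested, of which the median size was 0.47. Among the 7 members, Ntf3 was the only one whose sets did not overlap without rat 6, against 49.1% of all genes tested. The sets were chosen on the same libraries, so these values are a description without a test. Per kilobase of exon, Ntf3 stood at between 0.502 and 0.94 of the level of Bdnf in set A and at between 1.73 and 2.91 times it in set B. The order of the ligands therefore followed the set and not the treatment, with ratios of 1.63 ± 0.983 in blast-boldine rats and 1.16 ± 0.749 in blast-controls without rat 6.

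Against 49.1% of all genes tested, taken singly, 3 of 13 marker lists of cell types and regions had summed levels that did not overlap between the sets without rat 6. The markers of the other 10 lists overlapped. Those of endothelium and mural cells (5 of 5 measured) summed to 99.7 to 144 CPM in set A and 211 to 276 CPM in set B without rat 6, and those of microglia (5 of 5) to 257 to 282 CPM and 113 to 182 CPM. Neuronal markers (5 of 5) summed to 4100 to 5657 CPM and 5984 to 6467 CPM. Among the lists that overlapped were those of the dentate gyrus, where 3 of 5 were measured, at 262 to 338 CPM and 277 to 367 CPM, and of astrocytes, at 3195 to 3771 CPM and 2449 to 3400 CPM. None of the markers measured in these 5 lists was at 0 in the 11 deep libraries. Their part in the level of Ntf3 was not tested, and in tissue RNA fewer cells of a type cannot be told apart from less RNA per cell.

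Ntrk2, the gene of TrkB, lies on chromosome 17 from 5559043 to 5869136. In blast-boldine rats its lowest, median and highest values were 642, 718 and 775 CPM. In the 6 blast-controls they were 591, 739 and 866 CPM, with rat 6 inside this range at 745 CPM from 47 counts. The 6 blast-boldine rats all lay within the range of the blast-controls. Over the 12 libraries the means were 716 ± 51.9 and 736 ± 95 CPM, with a log2 fold change of -0.038 (95% interval -0.30 to 0.23) and an exact permutation p of 0.738. Without rat 6 the mean of blast-controls was 734 ± 106 CPM, the exact permutation p was 0.805, the log2 fold change was -0.039 and the interval ran from 0.824-fold to 1.15-fold, so that larger changes of Ntrk2 were outside it. The full-length and truncated forms of TrkB are counted together in these values, and a shift between them would not be seen.

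Ntrk3, the gene of TrkC, lies on chromosome 1 from 132132851 to 132503286. Its lowest, median and highest values were 126, 141 and 156 CPM in blast-boldine rats and 79.2, 136 and 177 CPM in blast-controls. The lowest was that of rat 6, with 5 counts. Without rat 6 the means were 140 ± 10.9 CPM and 143 ± 19.3 CPM. The log2 fold change was 0.029 (95% interval -0.27 to 0.33), and without rat 6 it was -0.026 (-0.26 to 0.20), from 0.838-fold to 1.15-fold. The exact permutation p was 0.58, and 0.855 without rat 6. The ratio of TrkB to TrkC transcripts differed between treatments by less than its spread, with Ntrk2 at 1.5 ± 0.162 times Ntrk3 per kilobase in blast-boldine rats and 1.51 ± 0.200 times in blast-controls without rat 6. By set it ran from 1.45 to 1.82 in set A and from 1.29 to 1.44 in set B without rat 6, without overlap. Of all genes tested, taken singly, 49.1% also did not overlap. The sets were chosen on these libraries, and the ratio by set is a description without a test.

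Ngfr, the gene of p75, lies on chromosome 10 from 80515296 to 80533518 and was the least abundant member. It had between 8 and 47 counts in blast-boldine rats, between 14 and 92 in the 5 deep blast-controls and 0 in rat 6. The lowest, median and highest values were 0.793, 1.64 and 2.54 CPM in blast-boldine rats, and 1.43, 2.0 and 3.04 CPM in blast-controls without rat 6. Of the blast-boldine rats, 3 lay under all 5 of these blast-controls and the other 3 within their range. The log2 fold change was -0.30 (95% interval -0.94 to 0.34), and -0.31 (-0.99 to 0.36) without rat 6, which leaves a fall to 0.505-fold possible. The difference in mean log2 CPM was 0.35 with rat 6 (exact permutation p = 0.848) and -0.33 without it (exact permutation p = 0.314), so that the sign changed with rat 6 and its 0 counts. Neurons of the basal forebrain that use acetylcholine carry p75 in the adult brain, and a list of 3 of their markers summed to 1.31 to 12.7 CPM in the 11 deep libraries, with Chat and Slc18a3 under 1 CPM in each and the remainder from Slc5a7.

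Sort1, the gene of sortilin, lies on chromosome 2 from 195924362 to 196002354. The lowest, median and highest values were 709, 873 and 1113 CPM in blast-boldine rats and 645, 882 and 1137 CPM in blast-controls. The blast-boldine rats formed a lower group of 3 in set B, from 709 to 771 CPM, and a higher group of 3 in set A, from 976 to 1113 CPM. In blast-controls the sets overlapped. Over the 12 libraries the means were 885 ± 170 and 861 ± 189 CPM, and the log2 fold change was 0.032 (95% interval -0.35 to 0.41, exact permutation p = 0.771), and -0.028 (-0.39 to 0.33, exact permutation p = 0.907) without rat 6, where the mean of blast-controls was 900.5 ± 182 CPM. With the set as a covariate and without rat 6 the interval narrowed to between 0.848-fold and 1.17-fold.

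Sorcs2 lies on chromosome 14 from 74371415 to 74735943. In blast-boldine rats 12, 17 and 19 of set B it measured 69.7, 70.3 and 66.9 CPM, and in blast-boldine rats 20, 32 and 35 of set A it measured 124, 108 and 98.7 CPM. In blast-control rats 4 and 5 of set B it measured 99.2 and 65.5 CPM, and in blast-control rats 1, 7 and 9 of set A it measured 97.6, 106 and 101 CPM. The library of rat 6 held 1 count. Blast-boldine rats thus included 2 values above all blast-controls and none below the lowest deep blast-control.

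For Sorcs2 the means were 89.6 ± 24.0 CPM in blast-boldine rats and 93.9 ± 16.2 CPM in blast-controls without rat 6. The log2 fold change was 0.0092 (95% interval -0.50 to 0.52) and -0.073 (-0.49 to 0.34) without rat 6, with exact permutation p of 0.669 and 0.643. The blast-boldine minus blast-control difference in mean log2 CPM was 0.11 within set A and -0.23 within set B without rat 6. The test of this difference between the sets (interaction of treatment and set in edgeR, without rat 6) gave an adjusted p of 0.882. For the other members this adjusted p lay between 0.906 and 0.988, and the share of all 12529 genes with an adjusted p under 0.05 was 0.0%, with 707 genes at an unadjusted p under 0.05.

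**Figure D3:**
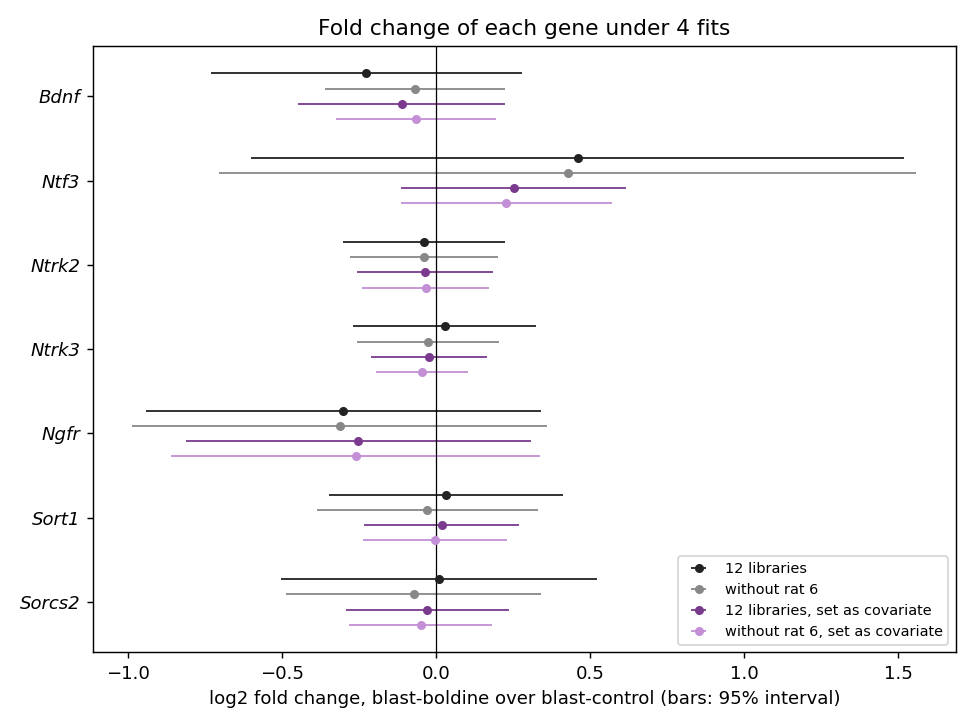
Log2 fold change of blast-boldine over blast-control for each gene under 4 fits of edgeR, with 95% intervals as bars. All 28 intervals include 0, and the intervals of Ntf3 are the ones that narrow most when the set is a covariate, from -0.60 to 1.52 down to -0.11 to 0.62.

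Between the genes, levels were compared per kilobase of exon in the 11 deep libraries. Sort1 stood highest at 132 ± 25.4 CPM per kb in blast-boldine rats and 135 ± 27.3 CPM per kb in blast-controls. Ntrk2 followed at 74.4 ± 5.39 and 76.3 ± 11.02, and Ntrk3 at 49.7 ± 3.86 and 50.6 ± 6.84 CPM per kb. Sort1 was above Ntrk2, Ntrk2 above Ntrk3 and Ntrk3 above Sorcs2 in 11 of 11 libraries.

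The ligands and Sorcs2 formed a middle group. Sorcs2 measured 15.7 ± 4.20 CPM per kb in blast-boldine rats and 16.4 ± 2.83 CPM per kb in blast-controls, Ntf3 measured 17.4 ± 10.6 and 12.9 ± 8.96, and Bdnf measured 10.7 ± 1.10 and 11.2 ± 2.13. Sorcs2 was above Ntf3 in 7 of 11 libraries and Ntf3 above Bdnf in 5 of 11, so that the places of Ntf3 did not hold beyond its spread. Ngfr was lowest in all 11 libraries, at 0.503 ± 0.208 and 0.619 ± 0.193 CPM per kb. Exon length is the one in the count table, 2822 bases for Ntrk3 and 9627 for Ntrk2, and a gene model that lacks part of its untranslated sequence would shift these levels.

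**Figure D4:**
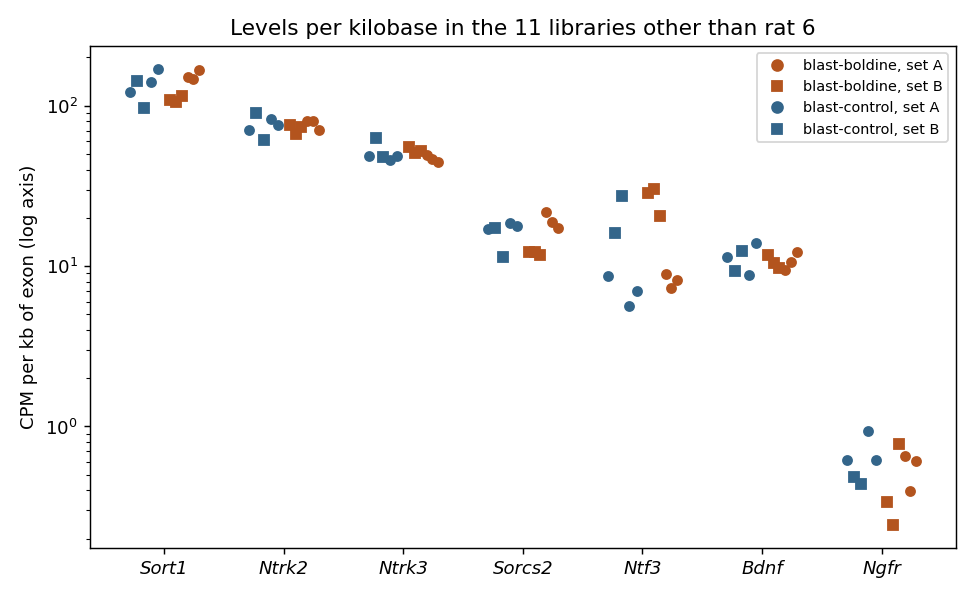
CPM per kilobase of exon (log axis) for each gene in the 11 libraries other than rat 6, in the order of the mean, coloured by treatment and shaped by set. Sort1, Ntrk2 and Ntrk3 form the upper levels from 44.6 to 170 CPM per kb, Ngfr lies under 1, and Ntf3 is split by set.

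The ratio of the sortilin receptors differed between treatments by less than its spread, with Sort1 at 8.62 ± 1.11 times Sorcs2 per kb in blast-boldine rats and 8.21 ± 0.934 times in blast-controls without rat 6. Among genes whose variation within the sets was most like that of Bdnf over 11 libraries were Dtwd1 (Pearson r of log2 CPM after the set means were removed, 0.923), Ctnna2 (0.904) and Pcdhga11 (0.899). For Ntf3 they were Afg1l (0.979), Gspt2 (0.964) and Eif4e3 (0.957). Without removal of the set means, r was 0.544, 0.802 and 0.028 for the genes like Bdnf and 0.986, 0.992 and 0.995 for those like Ntf3. These were picked as the highest of all genes tested and share the libraries, depth and scaling with the members, and the values are a description.

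Other genes of the pathway were taken as 7 lists of 85 genes, of which 81 were in the table and 77 passed the filter. Over the 12 libraries edgeR gave none of the 77 an adjusted p under 0.05, nor an unadjusted p under 0.05, against 1.07% of all genes tested. Their median log2 fold change was -0.029, beside 0.0046 over all genes tested. Without rat 6, 2 of the 77 had an unadjusted p under 0.05, against 1.4% of all genes. With the set as a covariate as well it was 9 of the 77 (11.7%), against 5.35% of all genes, and none had an adjusted p under 0.05. Of these 9, 8 were lower in blast-boldine rats, and of all genes with an unadjusted p under 0.05 in that fit 66.1% were lower. With DESeq2 in place of edgeR over the 12 libraries, 1 regulator of Bdnf transcription had an unadjusted p under 0.05, and no gene of the other lists. The share of all genes in that fit was 0.542%. The lists are not independent of earlier results of these data, and these shares are a description.

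Of the remaining ligands, Ntf4, which encodes another ligand of TrkB, had 0 to 16 counts in the 11 deep libraries and was not tested.

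Of the other sortilin-family receptors, 3 of 3 were tested and none passed. Sorl1, the sorting receptor SORLA, was the most abundant at 870 ± 66.7 CPM in blast-boldine rats and 870 ± 138 CPM in blast-controls without rat 6. Of 14 genes that process or carry proneurotrophins, 11 were tested, with log2 fold changes from -0.30 to 0.21. Cpe, carboxypeptidase E, was the most abundant of them at 1390 ± 97.6 CPM and 1370 ± 278 CPM. Plat, tissue plasminogen activator, had the smallest p of the list (log2 fold change 0.21, SE 0.23, unadjusted p = 0.385 in edgeR).

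Of 25 adaptors and effectors of Trk receptors, 22 were tested, 14 with a positive and 8 with a negative log2 fold change. Kidins220, a scaffold that binds Trk receptors, was the most abundant at 737 ± 65.2 CPM and 760 ± 73.5 CPM. Frs2, the docking protein of the Shc site, had the smallest p (log2 fold change 0.12, SE 0.12, unadjusted p = 0.303 in edgeR). With the set as a covariate and without rat 6, the adaptor Sh2b1 (log2 fold change -0.14, SE 0.062) and Hap1 (-0.18, SE 0.077) had an unadjusted p under 0.05, and both are named after their values were seen. Of 16 partners of p75, all were tested, 10 positive and 6 negative. The smallest p there was that of Arhgdia, a GDP dissociation inhibitor of small GTPases (log2 fold change -0.38, SE 0.19, unadjusted p = 0.0726, and -0.21, SE 0.091, unadjusted p = 0.0389 with the set as a covariate and without rat 6), and the most abundant was Sqstm1 at 459 ± 97.0 CPM and 486 ± 86.9 CPM. Rhoa, also of this list, is named after its values were seen. It was higher in blast-boldine rats with the set as a covariate and without rat 6 (log2 fold change 0.12, SE 0.055, unadjusted p = 0.0406 in edgeR).

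Of 12 regulators of Bdnf transcription, 11 were tested, 4 positive and 7 negative. Crtc1, a coactivator of CREB, had the smallest p and Camk4, a kinase of CREB, the highest mean. Both were far from the other libraries in rat 6, with 62 and 58 counts there. For Crtc1 the log2 fold change was -0.93 (SE 0.66) with rat 6 and -0.14 (SE 0.43) without it, and that of Camk4 was -0.57 (SE 0.68) and 0.15 (SE 0.52). With the set as a covariate as well, it was -0.28 (SE 0.078, unadjusted p = 0.00384) for Crtc1 and -0.082 (SE 0.16) for Camk4, so that the sign for Camk4 changed between these fits.

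Of 12 genes known to respond to BDNF, all were tested and all 12 had a negative log2 fold change over the 12 libraries, from -0.55 to -0.041 with a median of -0.20. This list shares genes with the activity-regulated transcripts for which earlier results of these data were known, and its direction is no independent evidence. None had an unadjusted p under 0.05 in that fit. Dusp5, a phosphatase of ERK, had the smallest p (log2 fold change -0.55, SE 0.29, unadjusted p = 0.0815 in edgeR) and Homer1, a postsynaptic scaffold, was the most abundant, at 213 ± 21.9 CPM and 217 ± 44.8 CPM.

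With the set as a covariate and without rat 6, 10 of the 12 were negative, with a median of -0.19 beside -0.0082 over all genes tested, and 4 had an unadjusted p under 0.05, against 5.35% of all genes. These 4, named after their values were seen, were the activity-regulated Arc (log2 fold change -0.30, SE 0.12), Egr1 (-0.40, SE 0.17), the secreted neuropeptide precursor Vgf (-0.24, SE 0.10) and the ETS factor Etv5 (-0.20, SE 0.062). Their adjusted p in edgeR was 0.898 each. In the same fit, Bdnf itself had a log2 fold change of -0.064 (SE 0.12) and Ntrk2 of -0.034 (SE 0.095).

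**Figure D5:**
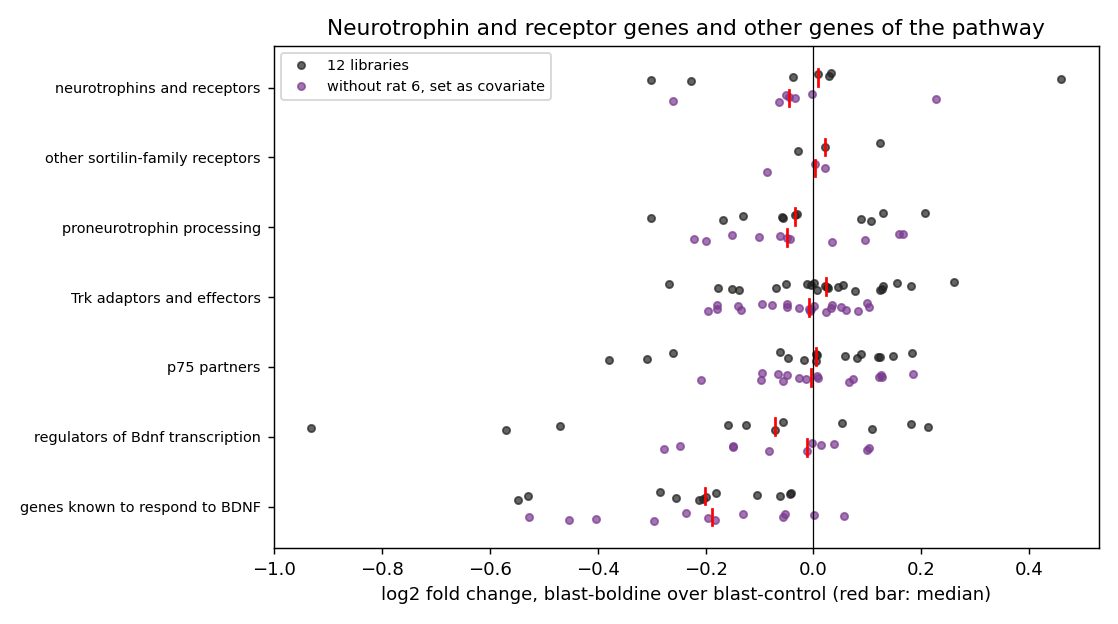
Log2 fold change of blast-boldine over blast-control for the 7 members and the tested genes of 6 pathway lists, 1 point per gene, over 12 libraries (black) and without rat 6 with the set as a covariate (purple), with red bars at the medians. The list of genes known to respond to BDNF has medians of -0.20 and -0.19, and the medians of the other 5 lists lie between -0.072 and 0.023 over the 12 libraries.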

How the data were processed

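The authors used HTStream to screen and trim reads and remove duplicates, STAR 2.7.11b for alignment to mRatBN7.2, and counted reads on exons by gene name and strand with featureCounts (Subread 2.0.1). The deposited values are raw counts of 17494 genes in 12 columns. Gene spans and exon lengths come from that table. Genes were tested with edgeR 4.0.16 in R 4.3.3 (quasi-likelihood, TMM, filterByExpr with a minimum of 10 counts, treatment as the only term, 12 libraries). SE is the log2 fold change divided by the root of F, and 95% intervals use its total degrees of freedom. The p of edgeR can be larger than F alone gives, as for Ntrk3 over the 12 libraries (unadjusted p = 0.888 in edgeR). Its interval there does not take this into account and is narrower than the test allows. log2 CPM adds a prior count of 2. Each rat is 1 library and 1 replicate. Permutation tests, Poisson intervals and plots used Python 3.11.15, matplotlib 3.10.9, scipy 1.17.1, pandas 2.3.3 and numpy 2.4.6. Alternatives were DESeq2 1.42.0, limma-voom (limma 3.58.1), other size factors and filters, the set of libraries as a covariate, and leaving out each library. The fits of edgeR, limma-voom and DESeq2 were also run on simulated counts with known changes. These had a lower dispersion than the data and no difference between sets, so they do not show how the fits perform here.

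The members and lists were chosen with earlier results of these data known. Genes named beyond the members are, per list, that with the smallest p and that with the highest mean CPM, the 3 genes most like Bdnf or Ntf3, Ntf4, and those said to be named after their values were seen. The other genes of the list that holds Ntf4 are not reported here. All 13 marker lists entered the comparison between the sets. The levels of the lists of CA2 and CA3, of oligodendrocytes, of meninges and Schwann cells and of blood are not printed. Genes of the lists absent from the table were not analysed here, and protein sequences were not used here.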

Additional observations from a re-analysis of the deposited data

Results flagged for a closer look

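In each group the highest or lowest value was compared with its neighbour by Dixon's criterion, for 21 sets of values (7 genes in blast-boldine rats and in blast-controls with and without rat 6). Chance flags about 1 in 20 such sets. Bdnf in blast-controls was flagged because rat 6, the shallow library, measured 206 CPM, far above the other 5. Without rat 6, Ntrk3 in blast-controls was flagged because rat 4 measured 177 CPM, and Sorcs2 because rat 5 measured 65.5 CPM, under the other 4. Both of these rats belong to set B.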

How the results depend on the processing

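Under the 22 alternatives (21 for Ngfr, which a minimum of 10 counts in every library other than rat 6 removed), no gene and no member had an adjusted p under 0.05. Genes with an unadjusted p under 0.05 numbered 132, and between 85 (DESeq2, and edgeR without blast-boldine rat 12 or rat 17) and 736 (DESeq2 with the set as a covariate and without rat 6, chosen after seeing the data). They numbered 254 without a filter, 474 with the set as a covariate, 670 with the set and without rat 6, 279 in DESeq2 without rat 6, 87 without blast-control rat 1 and 214 without blast-control rat 5. The log2 fold change kept its sign for Bdnf (-0.33 to -0.064), Ntf3 (0.22 to 0.92) and Ngfr (-0.45 to -0.10) under every alternative. Leaving out 1 rat at a time gave -0.070 to 0.017 for Ntrk2, -0.026 to 0.12 for Ntrk3, -0.028 to 0.13 for Sort1 and -0.097 to 0.088 for Sorcs2. No paired analysis was possible because the groups share no replicate number. The cause of the changes of sign below was not tested.

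Ntrk2 (-0.038) became 0.017 without blast-control rat 4. Ntrk3 (0.029) became -0.023 in DESeq2, -0.022 with the set as a covariate, -0.0021 without blast-boldine rat 12, -0.026 without rat 6, -0.046 with the set and without rat 6, and -0.026 and -0.044 in DESeq2 without rat 6 and with the set as well. Sort1 (0.032) became -0.028 without blast-boldine rat 35, -0.021 without blast-control rat 5, -0.028 without rat 6, -0.0032 with the set and without rat 6, and -0.027 and -0.0027 in DESeq2 without rat 6 and with the set as well. Sorcs2 (0.0092) became -0.054 in limma-voom, -0.0022 with RLE and -0.011 with upper quartile size factors, -0.029 with the set as a covariate, -0.097, -0.045 and -0.016 without blast-boldine rats 20, 32 and 35, -0.073 without blast-control rat 5 and without rat 6, -0.050 with the set and without rat 6, and -0.070 and -0.049 in DESeq2 without rat 6 and with the set as well. The difference in mean log2 CPM fell below 0 without rat 6, to -0.018 for Ntrk3 (from 0.12), -0.33 for Ngfr (from 0.35), -0.022 for Sort1 (from 0.047) and -0.090 for Sorcs2 (from 0.33), also when rats were reassigned within sets. Rat 6 limits detection to 47.5 CPM, above the level of Ntf3 in each of the other libraries.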
